A study of Mus musculus with 4 samples.

Results

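The S100 genes encode small EF-hand proteins that bind calcium. 8 of them, S100a1, S100a4, S100a6, S100a8, S100a9, S100a10, S100a11 and S100a13, were followed across the immune cells of the mouse spinal cord. They were taken by gene symbol, 8 of the 31053 genes counted in each library. The study sorted CD45+ cells, the cells of the blood lineage, from the spinal cords of C57BL/6 mice of both sexes aged 3 months and sequenced them by droplet single-cell RNA-seq. Injured mice received a moderate contusion after laminectomy at the tenth thoracic segment, and sham mice received the laminectomy alone. All mice were given flunixin meglumine (an anti-inflammatory drug), ceftiofur sodium (an antibiotic) and saline after surgery.

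There were 4 libraries, 1 per condition. The standard sham library came from sham cords dissociated without a transcription inhibitor. The ActD sham library came from sham cords with actinomycin D (ActD), which blocks transcription, present in every step. The 3 dpi and 14 dpi libraries came from cords 3 and 14 days post injury, both dissociated with ActD. Mice were pooled, and how the mice were split over the 4 libraries was not given. Each condition is 1 library, so no difference between libraries has a replicate check and no test between conditions was possible. Intervals are 95% counting intervals of unique molecular identifiers (UMIs, which count captured RNA molecules) and do not cover differences between mice.

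After filtering, 5035, 2135, 8214 and 9078 cells with 47840648, 25739742, 95616144 and 95757564 UMIs were kept. Sets of 4 values follow the order standard sham, ActD sham, 3 dpi, 14 dpi throughout. Cell classes were rebuilt from marker genes with every S100 gene left out of the clustering and of the markers, and each class name stands for cells that resemble the named type. Ptprc, which encodes CD45, had a UMI in 87.5%, 94.7%, 84.1% and 94.8% of the cells kept. The libraries shared between 3 and 36 cell barcodes per pair. Microglia carried at least 11 of 12 fixed markers and neutrophils at least 7 of 10 in every library, whereas the injury-associated macrophages carried 10 of 10 at 3 dpi and 5 of 10 at 14 dpi. Monocytes carried 10 of 10 classical markers in every library, but the 28 monocytes of the ActD sham were led by patrolling markers (Ace, Ear2, Treml4), those of 3 dpi by classical ones (Vcan, Plac8, Ly6c2), and those of the standard sham and 14 dpi by both. The 3 dpi monocytes scored 1.058 times as high for injury-associated macrophages as for monocytes. They took their name from these leading genes.

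S100A8 and S100A9 pair as calprotectin, the most abundant cytosolic protein complex of neutrophils, which sequesters metal ions and, once released, acts on Toll-like receptor 4 and on RAGE. S100A4 binds non-muscle myosin and is known for cell motility, S100A6 (calcyclin) binds annexins and the calcyclin-binding protein, S100A10 has lost calcium binding and joins annexin A2 at the plasma membrane, and S100A11 binds annexin A1. S100A1 is best known from muscle and nerve cells, and S100A13 for the non-classical release of FGF1 and interleukin-1 alpha.

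All 8 genes lie on chromosome 3 in mm10. S100a1 (chr3:90511034-90514392, minus strand), S100a13 (chr3:90514435-90524581, plus), S100a4 (chr3:90603771-90606045, plus), S100a6 (chr3:90612882-90624181, plus), S100a8 (chr3:90668978-90670035, plus) and S100a9 (chr3:90692632-90695721, minus) lie within 185 kb. S100a11 (chr3:93520488-93526287, plus) and S100a10 (chr3:93555080-93564643, plus) follow after a gap of 2.82 Mb. S100a13 has 4 exons in its principal transcript and the other members have 3.

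The promoters below are those of the pair that led in neutrophils, S100a8 and S100a9, and of S100a4 and S100a6. The latter are neighbours among the 8 members, were both high in monocytes and differed in neutrophils. Each covers 300 bases around the RefSeq start (GRCm38.p6, 5′ to 3′ on the strand of the gene), and 7 of the 8 members had an entry. Capitals mark matches, on either strand, to 3 motifs. The first is TATAAA, the TATA box. The core bound by PU.1 is AGGAAG, and that bound by C/EBP factors is TTGCNNAA.
S100a8, chr3:90668821-90669120, plus strand: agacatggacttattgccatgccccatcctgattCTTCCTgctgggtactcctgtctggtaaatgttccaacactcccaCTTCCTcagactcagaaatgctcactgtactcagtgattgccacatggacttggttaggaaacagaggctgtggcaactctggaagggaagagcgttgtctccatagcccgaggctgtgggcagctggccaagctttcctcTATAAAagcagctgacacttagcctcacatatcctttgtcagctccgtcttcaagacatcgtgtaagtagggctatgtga
S100a9, chr3:90695672-90695971, minus strand: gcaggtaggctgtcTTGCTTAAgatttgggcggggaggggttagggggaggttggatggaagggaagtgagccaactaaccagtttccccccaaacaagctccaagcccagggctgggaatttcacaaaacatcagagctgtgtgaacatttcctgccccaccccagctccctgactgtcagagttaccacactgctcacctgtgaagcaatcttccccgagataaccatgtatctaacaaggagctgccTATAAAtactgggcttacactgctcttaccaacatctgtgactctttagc
S100a4, chr3:90603520-90603819, plus strand: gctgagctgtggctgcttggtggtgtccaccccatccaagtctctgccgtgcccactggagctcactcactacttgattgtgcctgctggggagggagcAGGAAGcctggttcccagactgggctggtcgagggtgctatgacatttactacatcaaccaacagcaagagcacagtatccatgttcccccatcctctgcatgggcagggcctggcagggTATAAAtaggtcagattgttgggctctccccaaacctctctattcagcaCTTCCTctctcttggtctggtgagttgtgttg
S100a6, chr3:90612644-90612943, plus strand: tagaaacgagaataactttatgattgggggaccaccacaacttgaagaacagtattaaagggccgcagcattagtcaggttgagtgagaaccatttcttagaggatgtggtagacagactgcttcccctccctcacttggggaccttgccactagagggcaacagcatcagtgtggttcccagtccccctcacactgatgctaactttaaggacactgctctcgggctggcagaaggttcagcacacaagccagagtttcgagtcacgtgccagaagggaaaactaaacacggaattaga
TATAAA stood 30 bases before the S100a8 start, 31 before that of S100a4 and at the annotated start of S100a9, and 13.6% of all 32851 promoters of this length held it. AGGAAG or its reverse complement was found in S100a8 (216 and 171 bases before the start) and S100a4 (151 before and 18 after), and in 35.4% of all promoters. TTGCNNAA was found in S100a9 alone among the 7 (236 bases before the start, as TTGCTTAA) and in 10.8% of all promoters. S100a6 held no match in this window. A match describes letters only.

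S100a1 and S100a13 are read in opposite directions, with 42 bases between their starts in the GENCODE gene models. Their promoter windows, set around the RefSeq starts, overlap. The 204 bases common to both windows are shown because the pair did not share a pattern across cells.
S100a1 and S100a13 overlap, chr3:90514281-90514484, plus strand: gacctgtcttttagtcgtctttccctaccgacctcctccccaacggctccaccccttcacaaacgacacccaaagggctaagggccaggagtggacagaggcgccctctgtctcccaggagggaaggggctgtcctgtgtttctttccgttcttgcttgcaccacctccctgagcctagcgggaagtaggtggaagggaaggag
This stretch held 7 CpG dinucleotides and 59.3% G and C, against a median of 7 and 52.7% over all full promoter windows, and none of the 3 motifs was found in the window of either gene.

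The members differed most in where they were abundant. Over the 33 class-by-library sums with at least 50 cells, S100a8 ranged from 59.2 CPM (the gene's UMIs per 1000000 UMIs of those cells) in ActD sham B cells to 165661 in ActD sham neutrophils, and S100a9 from 73.4 to 180519 CPM. S100a6 and S100a11 were highest in ActD sham neutrophils (6544 and 4380 CPM), S100a4 in 3 dpi monocytes (2578), S100a10 and S100a13 in 14 dpi gamma-delta T cells (2679 and 349) and S100a1 in 3 dpi fibroblasts (151). The assay counts transcript ends, so CPM is not divided by transcript length, and levels are compared here within a gene. Only S100a4 had sums at or under 3 UMIs, 2 of 33, both in the ActD sham. The heat map of all classes and libraries shows the 3 patterns that follow: a neutrophil pair, a group shared by infiltrating cells and T cells, and S100a13 at a moderate level everywhere.

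**Figure D1:**
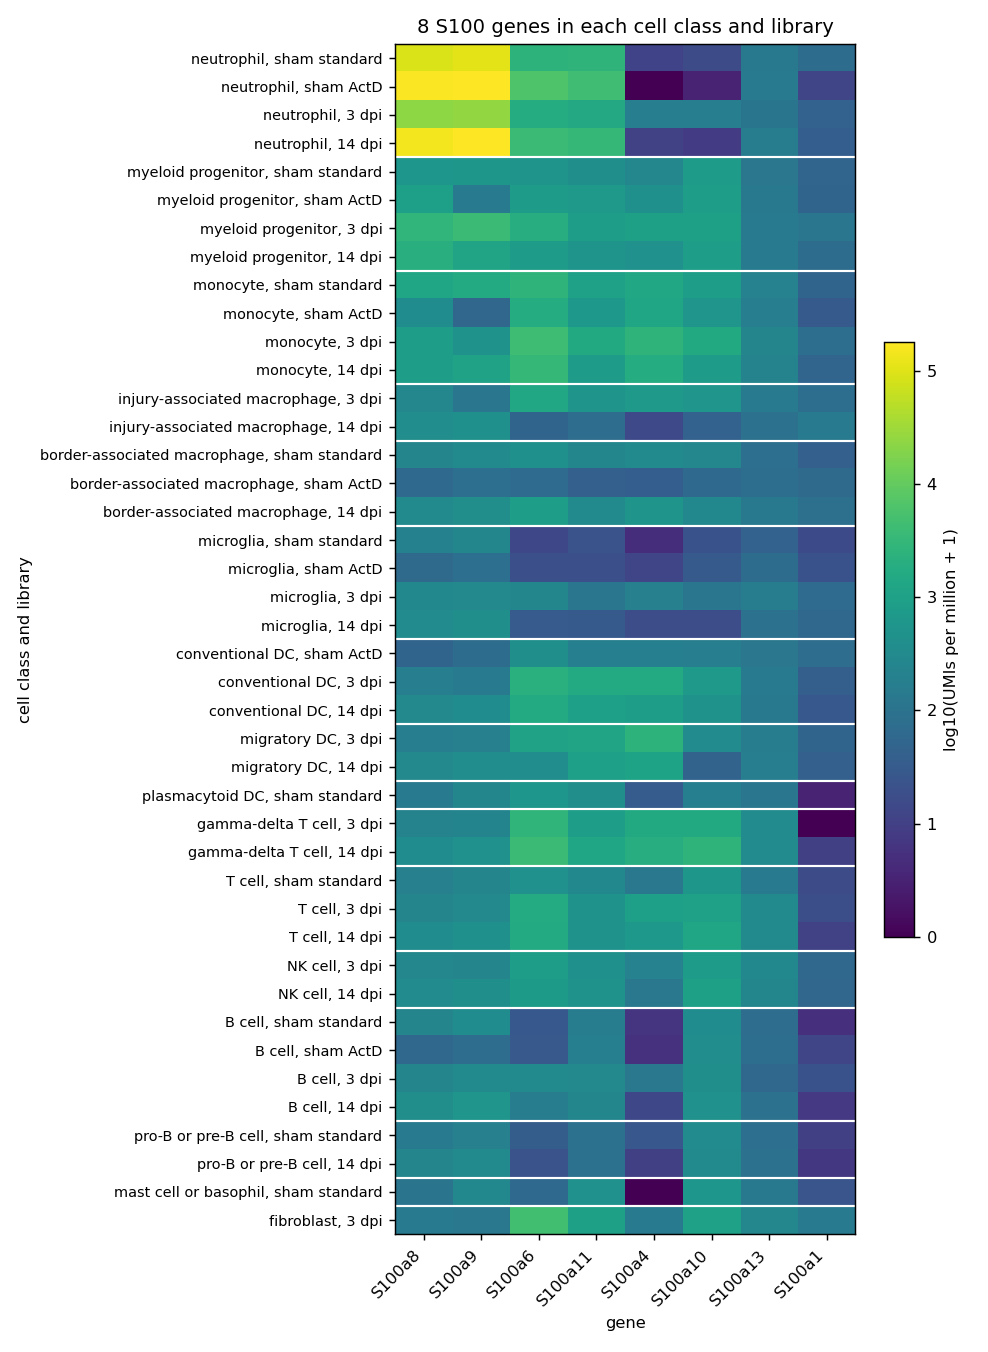
Level of the 8 S100 genes, as log10(CPM + 1), in each cell class of each library, including classes under 50 cells. S100a8 and S100a9 stand out in the neutrophil rows. S100a4, S100a6 and S100a11 are low in microglia and B cells of the sham libraries relative to monocytes. S100a10 is low in the sham microglia, with less of a gap in B cells (374 against 552 CPM in monocytes of the ActD sham). S100a13 varies least, from 43.8 to 349 CPM over classes with at least 50 cells.

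S100a8 and S100a9 were higher in neutrophils than in the other classes of every library, and their level in neutrophils was lower at 3 dpi than in the other libraries. S100a8 stood at 89543 CPM in the 493 neutrophils of the standard sham, 165661 in the 102 of the ActD sham, 23363 in the 1810 of 3 dpi and 147221 in the 1387 of 14 dpi. S100a9 was likewise lowest at 3 dpi, with 107455, 174459, 25603 and 180519 CPM. Together both genes supplied 19.7%, 34%, 4.90% and 32.8% of all neutrophil UMIs. The 3 dpi neutrophils were also shallower, with a median of 2291 UMIs per cell against 8136, 13540 and 5830. They were less clearly named as well. Of them, 1772 formed 1 cluster whose neutrophil marker score was only 1.004 times that for injury-associated macrophages. Of the neutrophil markers, Ly6g measured 3.60 CPM there and Csf3r 1107, against 371 and 539 in the other 38 cells.

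On the log2 scale, 3 dpi over ActD sham, the difference was -2.83 for S100a8 (interval -2.84 to -2.82) and -2.77 for S100a9 (interval -2.78 to -2.76). For 14 dpi over 3 dpi it was 2.66 for S100a8 and 2.82 for S100a9. The 14 dpi and ActD sham neutrophils lay close, at -0.17 (14 dpi over ActD sham) for S100a8 and 0.05 for S100a9. The standard sham over ActD sham differences were -0.89 and -0.70, under 2-fold. The comparisons with the ActD sham share that library.

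S100a6 and S100a11 were also high in neutrophils and were lower at 3 dpi. S100a6 measured 2491, 6544, 1783 and 3752 CPM in the neutrophils of the 4 libraries, and S100a11 measured 2683, 4380, 1488 and 3135. S100a4 and S100a10 were instead highest at 3 dpi, with S100a4 at 10.6, 0, 179 and 9.45 CPM and S100a10 at 16, 2.37, 174 and 7.03. The ActD sham neutrophils held no S100a4 UMI, which allows a level of up to 1.78 CPM, that of 3 UMIs. S100a1 rested on few UMIs (19 in the ActD sham) and was lowest there, at 72.0, 11.3, 43.6 and 36.8 CPM, and S100a13 stayed between 111 and 161 CPM. S100a4 had a UMI in 16.8% of 3 dpi neutrophils thinned to 1000 UMIs per cell (32.2% before thinning), and in 10.1% (27.9%) of the B cells of that library, whose median depth was 2504.

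Of the 8 members, 4 were at least 2-fold lower in 3 dpi than in ActD sham neutrophils (S100a6, S100a8, S100a9 and S100a11), where 8.62% of the 3714 genes with 200 or more UMIs over both sums were. 3 members were at least 2-fold higher (S100a1, S100a4 and S100a10), where 45.5% of genes were, so the higher members did not stand apart from the background. The median gene itself stood 0.86 higher on this scale. CPM is a share of all UMIs, and S100a8 and S100a9 together held 34% of them in the ActD sham and 4.90% at 3 dpi. Their lower share raises the CPM of all other genes. This shift and the shares of genes past 2-fold are therefore not independent of the members. How much of each came from this was not tested. From 3 dpi to 14 dpi the same 4 genes were at least 2-fold higher, with 9.56% of genes, and 2 of 8 were lower (S100a4 and S100a10), with 34.3%. From the ActD sham to 14 dpi, 1 of the 6 members with enough UMIs passed 2-fold (S100a1, higher, with 12.3% of genes). Between the sham libraries, S100a1 was at least 2-fold higher in the standard sham (2.68), as were 32.3% of genes, and S100a6 lower (-1.39), as were 9.46%. In the granule-led clusters described next, none of these 3 differences passed 2-fold. S100a1 differed there by 0.32 at 14 dpi (interval -0.40 to 1.11) and by -0.20 in the standard sham (11.4 against 13.1 CPM), while clusters led by Fcnb measured 76.0 and 123 CPM. S100a6 differed there by 0.019 between the sham libraries (5614 against 5540 CPM).

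The neutrophils of the libraries were not the same mixture. A cluster whose first leading gene was Camp, Ngp or Retnlg, called granule-led here, held 79.4% of ActD sham neutrophils (81 of 102). It held 2.10% of those at 3 dpi (38 of 1810) and 53.2% of those at 14 dpi (738 of 1387). The Fcnb-led clusters described below were counted apart, though they held more Camp, at 51767 against 27509 CPM at 14 dpi and 23765 against 20513 in the standard sham. Ngp was higher in them at 14 dpi (40698 against 28390) and lower in the standard sham (17435 against 29248). In the standard sham, whose cells were named in a joint clustering of both sham libraries, the granule-led cluster held 347 of 493. S100a8 and S100a9 stood at 132777 and 170092 CPM in it, against 165499 and 178388 in the granule-led cluster of the ActD sham. In the ActD sham, 3 dpi and 14 dpi granule-led cells S100a8 stood at 165499, 112397 and 170414 CPM, so the 3 dpi difference from the ActD sham was -0.56, not -2.83. In the other cluster, led at 3 dpi by Hdc, G0s2 and Cxcr2, it stood at 166650, 18812 and 79630 CPM, a difference of -3.15 at 3 dpi and -1.07 at 14 dpi, against 21 ActD sham cells. S100a6 differed in direction between the clusters from the ActD sham to 3 dpi, at 0.40 in the granule-led cluster (5540 and 7299 CPM) and -3.08 in the other (12693 and 1501 CPM). The part of the mixture in the whole-class values was not tested beyond these cluster values.

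Clusters led by Fcnb, a gene of early granule-forming neutrophils, occurred in the standard sham (105 cells) and at 14 dpi (181 cells) and were poor in S100a6. The standard sham one scored 1.048 times as high for myeloid progenitors as for neutrophils. It held Elane, a progenitor marker, at 13197 CPM, against 1457 at 14 dpi. Its median of 37557 UMIs per cell, against 6183 in the Retnlg-led cluster, gives it more weight in the class sums than its cell number. S100a6 measured 149 and 213 CPM in the Fcnb-led clusters, against 5614 and 5452 in the Retnlg-led clusters of the same libraries. S100a8 was less affected, at 62204 and 134611 CPM against 132777 and 170414. S100a1 was higher in the Fcnb-led clusters, at 123 and 76.0 CPM against 11.4 and 16.3. Thus S100a8 and S100a9 were also abundant in the neutrophil clusters with the least S100a6, as the plot of neutrophil clusters shows. An order of maturation was not tested.

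**Figure D2:**
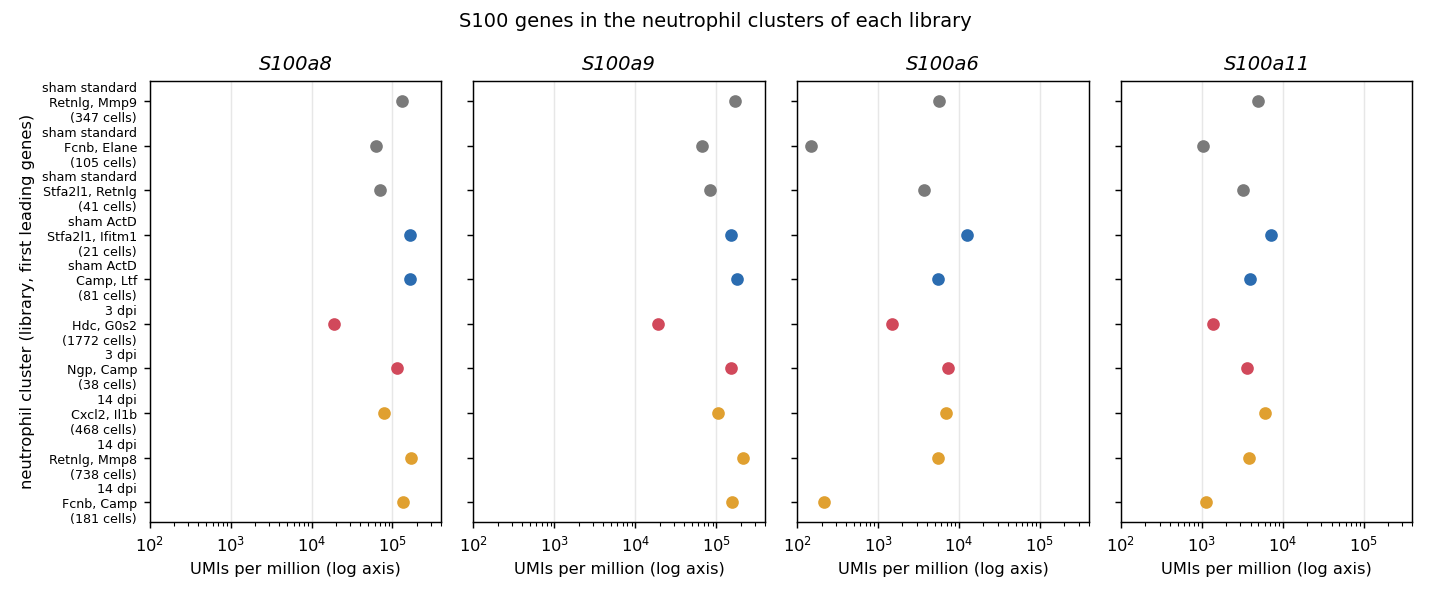
S100a8, S100a9, S100a6 and S100a11 in CPM (log axis) in each neutrophil cluster of each library, with each cluster as 1 point. S100a6 drops to 149 and 213 CPM in the Fcnb-led clusters of the standard sham and 14 dpi, and S100a8 to 18812 CPM in the large 3 dpi cluster.

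UMIs of S100a8 and S100a9 were present in every class outside neutrophils, at a low level that followed the library. Over the 6, 3, 8 and 10 other classes with at least 50 cells (myeloid progenitors apart), S100a8 had a median of 1.70 UMIs per cell in the standard sham, 0.663 in the ActD sham, 2.43 at 3 dpi and 2.78 at 14 dpi. Neutrophils of the same libraries held 1262, 2741, 56.6 and 1269 per cell. B cells, which are not known to make either gene, were lowest in every library, at 0.975, 0.391, 0.667 and 1.27 per cell. After thinning to 1000 UMIs, 14.4% to 26.5% of the cells of a class had an S100a8 UMI in the standard sham, 5.10% to 10.9% in the ActD sham, 11.3% to 30.1% at 3 dpi and 20.7% to 35.4% at 14 dpi (59.7% to 82.5%, 29.7% to 46.8%, 47.9% to 91.3% and 69.7% to 97.3% before thinning). In B cells these shares were 24.5%, 10.9%, 24.8% and 31.4%, so the share in B cells lay within or at the top of the range of the other classes in every library.

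As a yardstick, 14 other neutrophil genes (among them Ngp, Camp, Ltf and Lcn2) were measured in the same classes, 13 at 3 dpi, where Ly6g had 94 UMIs in neutrophils and was left out. The S100a8 level per cell in a class was 0.0773% to 0.944% of that in neutrophils in the standard sham, 0.0143% to 0.0251% in the ActD sham, 1.18% to 13.6% at 3 dpi and 0.100% to 0.587% at 14 dpi. The median of these genes ran from 0.117% to 2.10%, 0.0128% to 0.0391%, 2.04% to 22.3% and 0.131% to 0.931%. The ranges overlapped in every library, which does not show that levels matched within a class. At 3 dpi S100a8 lay above the median in monocytes (13.6% against 6.95%) and injury-associated macrophages (8.44% against 4.81%). It lay below the median in each other class there. Single yardstick genes spread widely, up to 56.7% in standard sham microglia and 341% in 3 dpi injury-associated macrophages. The percentages were largest at 3 dpi, where the level in neutrophils was smallest.

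**Figure D3:**
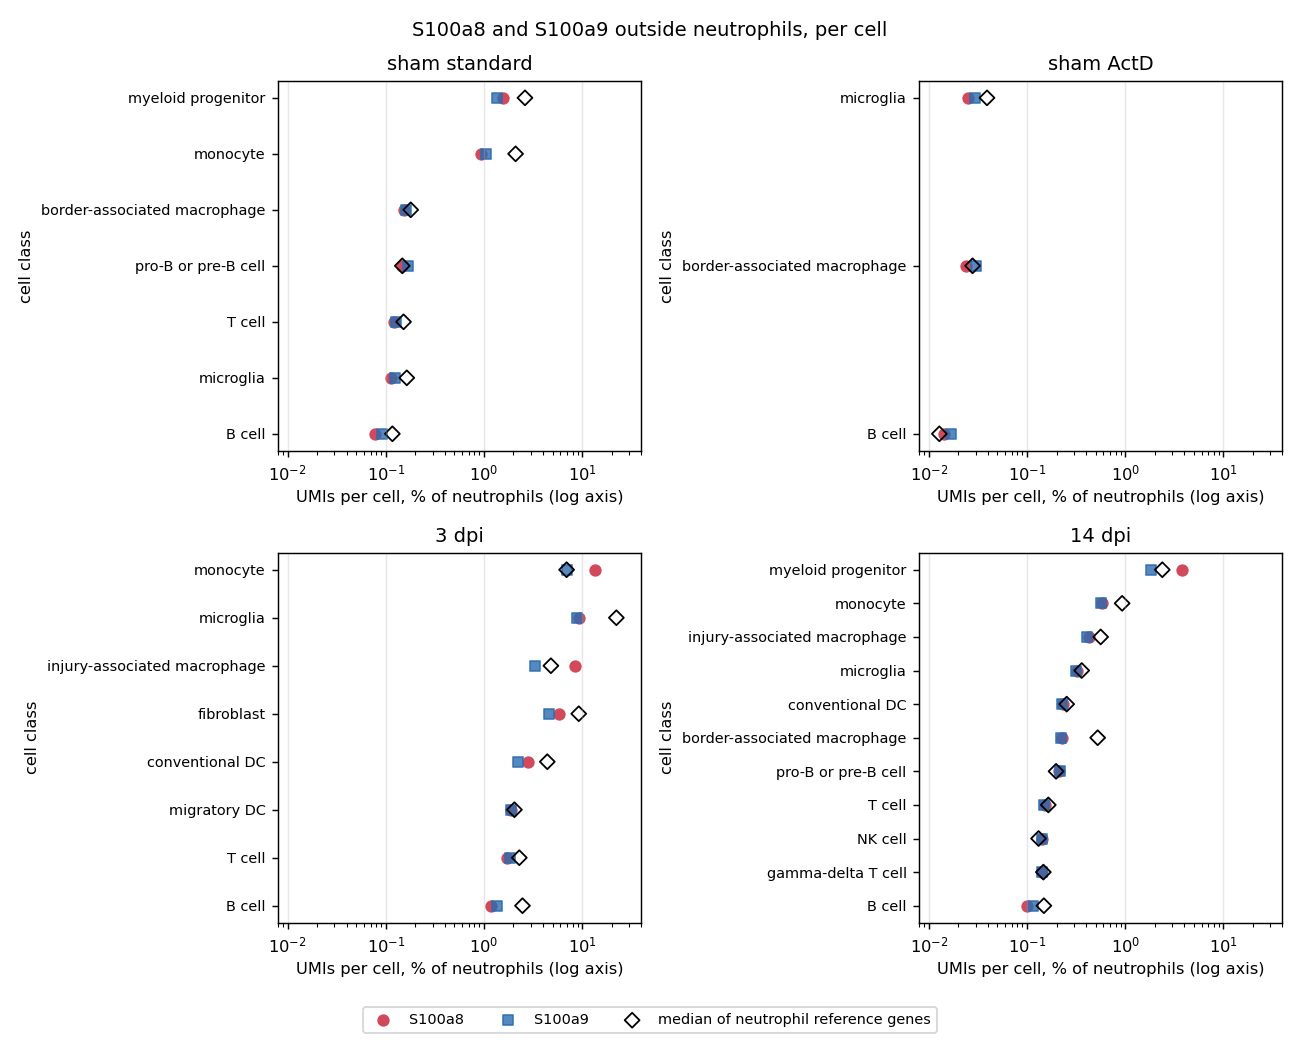
UMIs per cell of S100a8, S100a9 and the median of 14 neutrophil reference genes (13 at 3 dpi) in each other class with at least 50 cells, as a percent of the level in neutrophils of the same library (log axis). The 3 symbols lie close together in B and T cells, and S100a8 lies to the right of both other symbols in monocytes and injury-associated macrophages at 3 dpi.

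The ratio of S100a8 to S100a9 UMIs separated a few classes from this background. In neutrophils it was 0.833, 0.950, 0.913 and 0.816. In other classes with at least 50 cells (myeloid progenitors apart) it ran from 0.700 to 0.794 in the standard sham, 0.756 to 0.806 in the ActD sham and 0.710 to 0.858 at 14 dpi. Smaller classes went past these ranges. The ratio was 6.48 in the 28 ActD sham monocytes (interval 4.31 to 10.1), so a high ratio in monocytes was not particular to 3 dpi. In the standard sham it was 0.542 in 42 plasmacytoid dendritic cells and 0.375 in 22 mast cells or basophils. At 3 dpi it reached 2.35 (interval 2.27 to 2.43) in injury-associated macrophages and 1.78 in monocytes, with S100a8 at 274 and 865 CPM and S100a9 at 117 and 486. B cells of that library had a ratio of 0.789 and microglia 0.961. Conventional dendritic cells had 1.16 (interval 1.05 to 1.28) and fibroblasts 1.14 (interval 0.905 to 1.43). The ratio in injury-associated macrophages and monocytes thus lay above that of neutrophils and of each of these classes. That of conventional dendritic cells also lay above neutrophils and B cells, but rested in part on few cells. Of these 519 cells, the top 6 held 34.1% of the S100a8 UMIs, and the top 6 for S100a9 held 17.9%. In monocytes the top 7 of 618 held 28.6% and 46.7%, and in injury-associated macrophages the top 25 of 2416 held 7.99% and 12.4%. The intervals do not cover this unevenness between cells.

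Some of the S100a8 outside neutrophils sat in few cells. At 3 dpi, 5 of 460 microglia held 58.0% of the S100a8 and 62.6% of the S100a9 UMIs of that class. At 14 dpi, 7 of 685 monocytes held 52.8% of the S100a8 UMIs, and in the standard sham 2 of 200 held 36.0%. Elsewhere the level rose with the depth of the cell, from 1.98 to 7.87 S100a8 UMIs per cell between the shallowest and the deepest of 4 equal groups of 14 dpi microglia (median depth 4944 and 19428.5), but only from 1.23 to 1.38 in 14 dpi B cells. Levels of S100a8 and S100a9 in classes other than neutrophils are therefore given below without being read as expression.

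S100a4, S100a6, S100a10 and S100a11 were higher in monocytes, a cell type that enters the injured cord, than in the microglia that live there. They were not the only members to be so: 8, 6, 5 and 7 of the 8 members were at least 2-fold higher in the 4 libraries. The 8 members include S100a8 and S100a9, whose levels here are not read as expression. S100a6 stood at 2626, 1831, 4247 and 3104 CPM in the monocytes of the 4 libraries, and at 13, 18.0, 253 and 31.2 in the microglia, the resident macrophages of the cord. S100a4 stood at 1362, 1291, 2578 and 1788 CPM in monocytes and at 3.85, 11.5, 191 and 16.8 in microglia. S100a10 measured 828, 552, 1580 and 792 CPM against 20.1, 29.5, 116 and 16.2, and S100a11 measured 1016, 633, 1590 and 821 against 20.7, 17.9, 114 and 29.6. Monocytes exceeded microglia for all 4 genes in every library, and the lowest monocyte value of each gene lay above its highest microglial value. The libraries also held 282, 35, 28 and 360 myeloid progenitors, and where the monocytes of each library came from was not tested.

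On the log2 scale the monocyte over microglia difference in the standard sham was 8.47 for S100a4, 7.66 for S100a6, 5.36 for S100a10 and 5.62 for S100a11. All 4 passed 2-fold, as did 14.1% of all genes in that direction. In the ActD sham (28 monocytes) the values were 6.81, 6.67, 4.23 and 5.14, with 9.01% of genes, at 3 dpi 3.76, 4.07, 3.77 and 3.80, with 8.45%, and at 14 dpi 6.73, 6.63, 5.61 and 4.79, with 13.4%. The median of the 4 genes was 6.64, 5.91, 3.79 and 6.12, while the median of all genes was -0.15, -0.30, -0.05 and 0.05. The gap was narrowest at 3 dpi, where the microglial levels were highest.

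Injury-associated macrophages, a class seen only after injury, lay between monocytes and microglia at 3 dpi. S100a4, S100a6, S100a10 and S100a11 measured 676, 1433, 554 and 534 CPM in these 2416 cells. Another 999 cells scored highest for the same class (1.24 times the next) but stayed unnamed, since border-associated macrophage genes led them. They measured 1151, 2322, 919 and 788 CPM and are not in the values that follow. For the 2416 named cells, the differences over microglia of the same library were 1.82, 2.50, 2.26 and 2.23. All 4 were past 2-fold where 5.21% of genes were, with a median of 2.25 against -0.16 for all genes. Against monocytes they were -1.93, -1.57, -1.51 and -1.57, all 4 past 2-fold where 7.1% of genes were lower. The marker score of these monocytes was itself 1.058 times as high for injury-associated macrophages as for monocytes, so the 2 classes were not sharply separated. After thinning, S100a6 had a UMI in 93.4% of monocytes, 69.9% of injury-associated macrophages and 18.9% of microglia, beside 24.8% of B cells (99.7%, 97.7%, 82.2% and 51.9% before thinning). For S100a4 the thinned shares were 84.1%, 42.4%, 17.2% and 10.1% (96.9%, 91.6%, 75.7% and 27.9%). The microglial share of S100a6 was thus at the level of B cells, at median depths of 16738 and 2504.

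At 14 dpi the cells placed in that class were low in the same genes. The class was 1 cluster of 291 cells led by Gpnmb and Atp6v0d2, with 5 of 10 markers, whose markers scored highest for microglia, and it did not form when the library was clustered alone. S100a4 measured 13.8 CPM, S100a6 47.5, S100a10 44.2 and S100a11 73.7, against 16.8, 31.2, 16.2 and 29.6 in microglia. Only S100a10 (1.45) and S100a11 (1.31) passed 2-fold over microglia, 2 of 4, with 2.61% of genes. Both fell under 2-fold when called doublets were kept (0.98 and 0.87) and when Itgam-positive cells with lymphoid genes were kept (0.31 and 0.80). Against the 14 dpi monocytes the 4 genes differed by -7.02, -6.03, -4.16 and -3.48, with 20.6% of genes lower. The levels at 3 and 14 dpi therefore describe cells that share a cluster and not a marker profile.

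Border-associated macrophages, resident cells of the meninges and vessels, did not behave as microglia did. In the standard sham, which had no conventional dendritic class, their marker score was 1.219 times that for conventional dendritic cells. H2-Eb1, H2-Aa and H2-Ab1, genes of MHC class II, were among their leading genes there. At 14 dpi the marker score of the class was 1.1 times that for microglia, and in the ActD sham 1.403 times. No such class was named at 3 dpi. The part of dendritic cells or microglia in these values was not tested. S100a6 measured 436, 69.4 and 841 CPM in the standard sham, ActD sham and 14 dpi, and S100a4 measured 315, 36.6 and 529. S100a10 measured 266, 61.9 and 279 CPM and S100a11 measured 263, 39.4 and 313. Every one of these values exceeded that of microglia in the same library. The log2 differences from microglia were 6.35, 5.07, 3.72 and 3.67 in the standard sham for S100a4, S100a6, S100a10 and S100a11 (4 of 4, with 5.96% of genes). They were 1.66, 1.95, 1.07 and 1.14 in the ActD sham (4 of 4, with 4.28%) and 4.98, 4.75, 4.11 and 3.40 at 14 dpi (4 of 4, with 5.4%). In the ActD sham, S100a4, S100a10 and S100a11 fell under 2-fold in some other settings (0.71, 0.92 and 0.89 at a clustering resolution of 1.2), and S100a6 did not.

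The genes were detected in a part of the border-associated macrophages. After thinning, S100a4 had a UMI in 10.8%, 1.02% and 22.9% of them and S100a6 in 13.9%, 4.08% and 34.8% (17.7%, 5.10% and 39.3%, and 27.8%, 19.4% and 60.2% before thinning). Monocytes stood above them by 2.11, 2.59, 1.64 and 1.95 in the standard sham (4 of 4, with 14% of genes) and by 1.76, 1.88, 1.51 and 1.39 at 14 dpi (4 of 4, with 10.1%). The 14 dpi injury-associated class stood below them by -5.26, -4.15, -2.66 and -2.09 (4 of 4, with 6.16% of genes lower). The resident classes thus did not share 1 level of these genes, as the plot of resident and infiltrating classes shows.

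**Figure D4:**
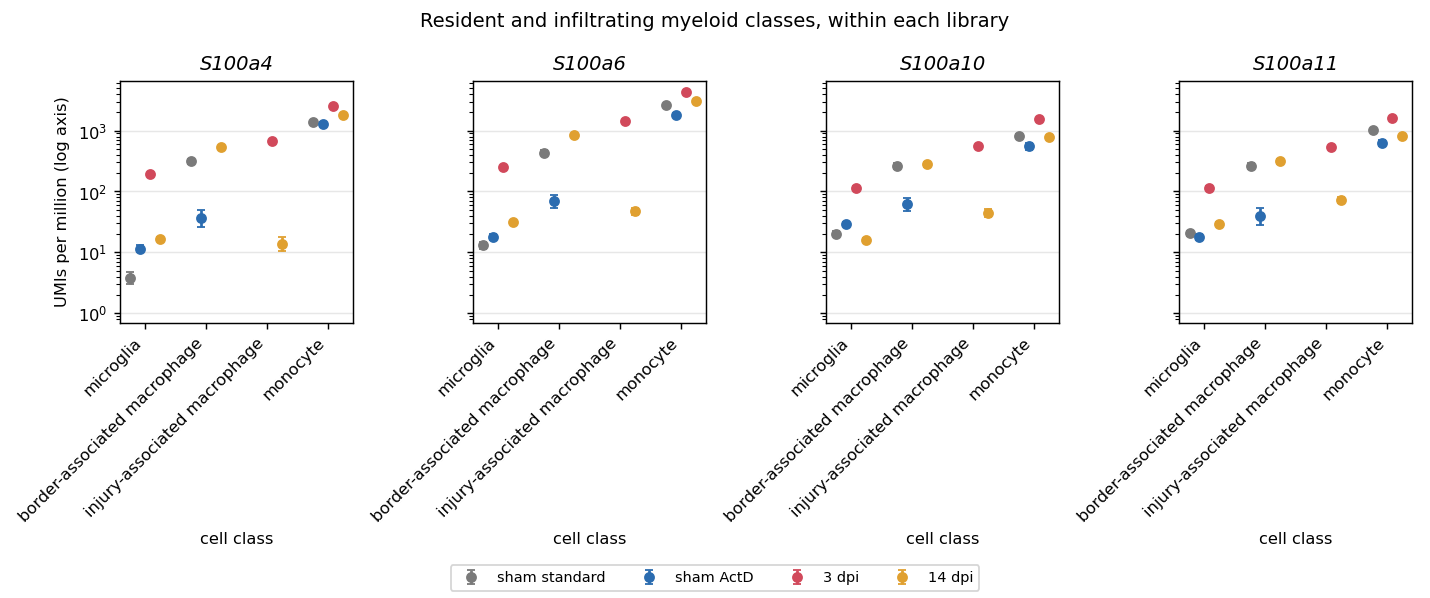
S100a4, S100a6, S100a10 and S100a11 in CPM (log axis) in microglia, border-associated macrophages, injury-associated macrophages and monocytes of each library, with 95% Poisson intervals. Monocytes are highest for each gene in each library, and the 14 dpi injury-associated point lies near microglia while the 3 dpi point lies between microglia and monocytes.

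Across libraries, microglia held more of every member at 3 dpi than in the ActD sham. S100a4 measured 3.85, 11.5, 191 and 16.8 CPM in the 4 libraries, and S100a6 measured 13, 18.0, 253 and 31.2. S100a10 measured 20.1, 29.5, 116 and 16.2 and S100a11 20.7, 17.9, 114 and 29.6. S100a1 (13.8, 20.4, 68.2 and 54.8 CPM) and S100a13 (43.8, 72.0, 163 and 88.3) were also highest at 3 dpi. S100a8 and S100a9 were highest at 14 dpi, at 342 and 411 CPM. In log2 terms the 3 dpi over ActD sham difference was 4.05 for S100a4, 3.82 for S100a6, 2.67 for S100a11, 1.97 for S100a10, 1.74 for S100a1 and 1.18 for S100a13, and 2.13 and 1.87 for S100a8 and S100a9. All 8 passed 2-fold, as did 7.54% of the 8652 genes tested, and the median gene stood at -0.62. S100a8 and S100a9 are counted here without being read as expression. At 3 dpi, 5 of 460 microglia held 58.0% and 62.6% of their UMIs.

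At 14 dpi the differences from the ActD sham were smaller for most members. S100a1 stayed at 1.42, and S100a8 and S100a9 stood at 2.39 and 2.34. S100a4 (0.54), S100a6 (0.80), S100a11 (0.73), S100a13 (0.29) and S100a10 (-0.87) stayed within 2-fold. Thus 3 of 8 passed, with 3.92% of genes, beside a median gene at -0.52. Among them were S100a8 and S100a9, which are not read as expression. For 14 dpi over 3 dpi, S100a4, S100a6, S100a10 and S100a11 differed by -3.50, -3.02, -2.84 and -1.94, 4 of 8 past 2-fold where 6.52% of genes were lower. In the standard sham 2 of 8 were at least 2-fold higher than in the ActD sham (S100a8 at 1.61 and S100a9 at 1.69, with 4.81% of genes) and 1 was lower (S100a4 at -1.58, with 18.6%). S100a8 and S100a9 are again not read as expression.

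The cells named microglia differed between libraries. In the ActD sham 809 of 1696 lay in a cluster led by P2ry12 and Fscn1 and 649 in one led by Spint1 and Lgals3bp, at 3 dpi 350 of 460 lay in a cluster led by Lpl and Serpine2 and 110 in one led by Siglech and P2ry12, and at 14 dpi 2403 of 4210 lay in the Lpl-led cluster. Within the P2ry12 and Siglech cluster, the same cluster in the 3 ActD libraries, S100a4 measured 3.1, 162.4 and 8.5 CPM and S100a6 4.7, 150.2 and 23.7 in the ActD sham, 3 dpi and 14 dpi. In the Lpl-led cluster (115 cells in the ActD sham) S100a4 measured 4.24, 195.4 and 8.2 CPM, and S100a6 4.24, 269.5 and 20.3. The 3 dpi values were thus higher within each shared cluster. At 3 dpi, however, the Lpl-led cluster scored only 1.064 times as high for microglia as for injury-associated macrophages. The P2ry12 and Siglech cluster scored 1.394 times as high. In the ActD sham the same clusters scored 2.027 and 2.431 times the next class, conventional dendritic cells. The part of injury-associated macrophages in the 3 dpi microglial values was not tested.

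Few cells set the ActD sham level. A cluster led by mitosis genes (Pbk, Prc1, Top2a) held 70 of 1696 ActD sham microglia (4.13%) but 77.3% of the S100a6 UMIs, 77.2% of the S100a4 and 45.4% of the S100a10 UMIs. In that cluster, 2 cells had at least 5 S100a6 UMIs, and neither had a P2ry12 UMI, a marker of microglia. At 14 dpi the cluster held 96 of 4210 microglia, 33.2% of the S100a6 and 51.4% of the S100a4 UMIs, and Ccr2, a monocyte gene, had a UMI in 57.1% of its 14 cells with at least 5 S100a6 UMIs against 9.76% of its other cells. Without this cluster the ActD sham microglia measured 2.84 CPM of S100a4 and 4.41 of S100a6, and the 3 dpi over ActD sham differences became 6.07 and 5.84, those of S100a10 and S100a11 2.73 and 3.08. At 14 dpi they became 1.57 for S100a4 and 2.29 for S100a6, past 2-fold, and -0.91 and 0.89 for S100a10 and S100a11. Between the sham libraries S100a4 turned to 0.44 and S100a6 to 1.56. At 3 dpi the mitosis-led cluster held 492 cells and carried no class name, so the 460 microglia of 3 dpi leave it out. Its marker score there was 1.028 times as high for injury-associated macrophages as for microglia. It measured 404 CPM of S100a4 and 503 of S100a6.

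B cells of the same libraries moved in the same direction for part of the family. From the ActD sham to 3 dpi they went from 4.73 to 127 CPM of S100a4 (2 and 44 UMIs), from 28.4 to 327 of S100a6 (12 and 113 UMIs), from 59.2 to 249 of S100a8 (25 and 86 UMIs) and from 73.4 to 315 of S100a9. The differences were 4.75 (interval 2.81 to 7.84), 3.52, 2.07 and 2.10. S100a10 went from 374 to 411 CPM in B cells, S100a11 from 185 to 304, S100a13 from 78.1 to 55.0 and S100a1 from 11.8 to 20.3, differences of 0.14, 0.72, -0.51 and 0.78. So S100a4, S100a6, S100a8 and S100a9 were more than 2-fold higher at 3 dpi in both classes, and S100a1, S100a10, S100a11 and S100a13 passed 2-fold in microglia and not in B cells, a difference that was not tested. In B cells only S100a10 had 200 or more UMIs over both sums, so 1 of 8 members could be set against the background there, where 7.69% of 442 genes were at least 2-fold higher. The part of free RNA from other cells in the 3 dpi microglial values was not tested.

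**Figure D5:**
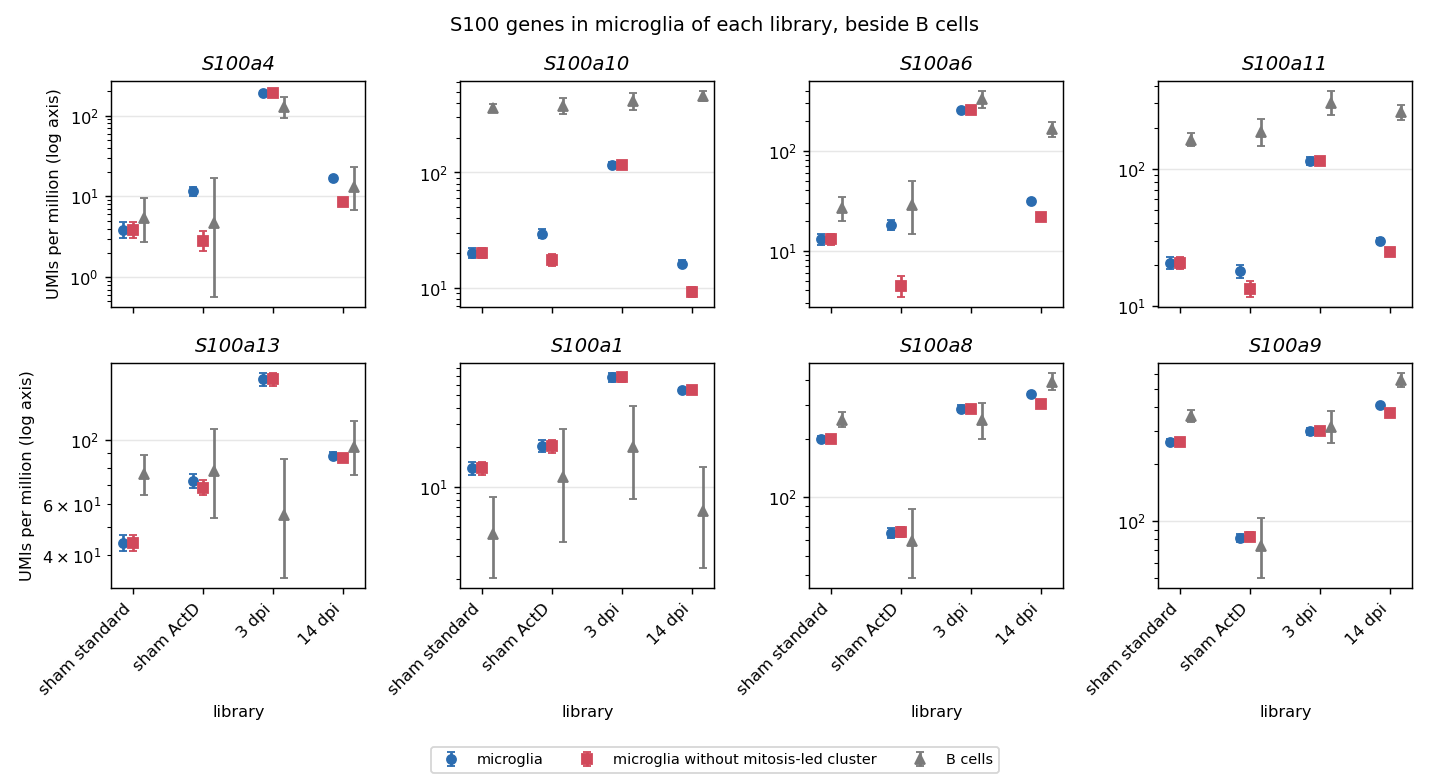
The 8 S100 genes in CPM (log axis, own scale per gene) in microglia, in microglia without the mitosis-led cluster and in B cells of each library, with 95% Poisson intervals. S100a4 and S100a6 peak at 3 dpi in microglia and in B cells, S100a10 peaks at 3 dpi in microglia while B cells stay between 361 and 457 CPM, and leaving out the mitosis-led cluster lowers S100a6 in the ActD sham from 18.0 to 4.41 CPM.

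Among lymphocytes, S100a4, S100a6 and S100a10 were higher in T cells than in B cells. The marker score of the standard sham T cells was only 1.165 times that for natural killer (NK) cells, a class that library did not have. Xcl1, Gzma and Il2rb were among their leading genes. The part of NK cells in these values was not tested. S100a4 measured 126, 946 and 624 CPM in the T cells of the standard sham, 3 dpi and 14 dpi, and 5.40, 127 and 13.1 in the B cells. S100a6 measured 452, 1680 and 1663 against 26.5, 327 and 163, and S100a10 593, 1015 and 1211 against 361, 411 and 457. S100a13 was also higher in T cells, at 151, 319 and 311 CPM against 76.1, 55.0 and 94.7. At 14 dpi the T over B differences were 5.58 (interval 4.77 to 6.53) for S100a4, 3.35 for S100a6, 1.72 for S100a13, 1.40 for S100a10 and 0.89 for S100a11, and 4 of the 7 members with enough UMIs passed 2-fold, with 12.2% of genes. At 3 dpi they were 2.89, 2.36, 2.54, 1.30 and 0.71, again 4 of 7, with 10.9% of genes. In the standard sham (55 T cells) S100a6 differed by 4.09, S100a11 by 0.78, S100a10 by 0.72 and S100a13 by 0.98, 1 of 6 past 2-fold, with 6.4% of genes, and S100a4 by 4.54 on 56 and 11 UMIs.

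Gamma-delta T cells carried more of S100a4, S100a6, S100a10 and S100a11 than the other T cells, and NK cells less of S100a4 and S100a6. In the 118 gamma-delta T cells of 14 dpi, S100a4 measured 1872 CPM, S100a6 3881, S100a10 2679 and S100a11 1220, against 624, 1663, 1211 and 479 in the 631 other T cells. The differences were 1.59, 1.22, 1.15 and 1.35, 4 of the 7 members with enough UMIs past 2-fold where 4.78% of genes were higher. In the 212 NK cells the values were 124, 739, 952 and 479 CPM, with differences from T cells of -2.33 and -1.17 for S100a4 and S100a6 (2 of 7 members, with 3.35% of genes lower) and -0.35 for S100a10. S100a1 went the other way, at 54.0 CPM in NK cells and 9.95 in T cells (2.44, on 61 and 34 UMIs).

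Dendritic cells, which present antigen, held high levels of these genes after injury. The conventional class was weakly marked. MHC class II genes (H2-Eb1, H2-Aa and H2-Ab1) were among its leading genes in each library, and in the ActD sham its marker score was 1.005 times that of microglia. Of 8 markers of type 2 conventional cells, 3, 5 and 6 were found in at least 25% of its cells in the ActD sham, 3 dpi and 14 dpi, and of 9 markers of type 1 cells 4, 2 and 3. Conventional dendritic cells measured 188, 1671 and 856 CPM of S100a4 and 415, 2204 and 1622 of S100a6 in the ActD sham (40 cells), 3 dpi and 14 dpi. S100a11 measured 186, 1647 and 909 CPM and S100a10 175, 652 and 468. Migratory dendritic cells had a different balance, with S100a4 at 2520 and 1134 CPM but S100a6 at 1045 and 376 at 3 and 14 dpi (71 and 41 cells). At 3 dpi the migratory over conventional difference was 0.59 for S100a4 and -1.08 for S100a6. All 4 genes were highest at 3 dpi in conventional dendritic cells, as in monocytes.

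S100a13 was the most even member and S100a1 the scarcest. S100a13 measured 133, 145, 111 and 161 CPM in neutrophils, 218, 176, 245 and 223 in monocytes and 43.8, 72.0, 163 and 88.3 in microglia. T cells lay above microglia at 14 dpi by 1.82 (interval 1.72 to 1.91). S100a1 was highest in fibroblasts (151 CPM, 3 dpi, 51 cells, of which 41.2% had a Ptprc UMI). Next came the injury-associated class of 14 dpi (148 CPM), whose markers scored highest for microglia. At 3 dpi injury-associated macrophages measured 79.6 CPM, beside 78.6 in monocytes. Border-associated macrophages measured 39.2, 63.7 and 87.7 CPM in the standard sham, ActD sham and 14 dpi. In the standard sham, neutrophils, myeloid progenitors (51.7 CPM) and monocytes (49.4) lay above them. B cells were among the lowest, at 4.42, 11.8, 20.3 and 6.53 CPM on 5 to 9 UMIs. Despite starts with 42 bases between them in the gene models, S100a1 and S100a13 had an r of 0.223 over the 33 sums.

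Members that follow each other on the chromosome were not always alike across cells. Over the same 33 sums (Pearson r of log2(CPM + 1), points that share libraries, depth and free RNA), S100a8 and S100a9 had an r of 0.991, S100a6 and S100a11, which lie in different groups on the chromosome, 0.914, S100a4 and S100a10 0.735, and the adjacent S100a4 and S100a6 0.583. The genes most like each member among 12171 compared were Lcn2, Il1f9 and Wfdc21 for S100a8 (r 0.968, 0.958 and 0.956) and Lcn2, Ly6g and Il1f9 for S100a9 (0.970, 0.959 and 0.959), all genes of neutrophils. For S100a4 they were Capn2, Ccr2 and Ahnak (0.871, 0.868 and 0.843), for S100a6 Flna, Anxa2 and Dock5 (0.921, 0.913 and 0.909), for S100a10 Psmb1, Crip1 and Ahnak (0.868, 0.863 and 0.857) and for S100a11 Gpd2, Glipr2 and Flna (0.906, 0.901 and 0.897). For S100a1 they were Gpx3, Anxa5 and Gpx4 (0.862, 0.814 and 0.811), and for S100a13 Ttc39c, Sept9 and Myl12a (0.895, 0.840 and 0.837).

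The genes of known binding partners and receptors were followed in the same sums. Ahnak, a large scaffold that binds S100A10 with annexin A2, tracked S100a10 (r 0.857) and ranged from 0.593 CPM in ActD sham neutrophils to 1133 in 14 dpi monocytes. Anxa2 itself, the annexin A2 gene, had an r of 0.182 with S100a10 but 0.913 with S100a6. Anxa1, the annexin A1 gene, had an r of 0.845 with S100a11 and was highest in ActD sham neutrophils, at 3784 CPM, against 1543, 169 and 2544 in those of the standard sham, 3 dpi and 14 dpi. Cacybp, the calcyclin-binding protein gene, did not track S100a6 (-0.215), nor did Myh9, the heavy chain of non-muscle myosin, closely track S100a4 (0.255).

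Receptor genes for released S100 proteins differed widely in level. Ager, which encodes RAGE, did not exceed 4.11 CPM in any of the 33 sums. Tlr4 reached 74.1 CPM and its co-receptor Ly96 97.5, both in ActD sham border-associated macrophages. Tlr4 in microglia measured 20.8, 41.7, 12.2 and 17.7 CPM, lowest at 3 dpi. Bsg and Emb, which encode the S100A9 receptors basigin and embigin, ran from 69.9 to 639 and from 0 to 900 CPM. Fgf1 and Syt1, genes of the S100A13 release complex, did not exceed 1.95 and 0.684 CPM, while Il1a measured 1297, 69.2, 25.5 and 19.98 CPM in microglia, far higher in the library made without ActD. In microglia from the ActD sham to 3 dpi, 4 of the 11 partner genes with enough UMIs were at least 2-fold higher (Anxa1, Anxa2, Ahnak and Emb at 2.90, 5.06, 4.19 and 3.21) and 3 lower (Tlr4, Ly96 and Il1a at -1.77, -1.17 and -1.44), where 7.54% and 33.5% of all genes were. In injury-associated macrophages over microglia at 3 dpi, 4 of 11 were higher (Ahnak, Emb, Anxa1 and Anxa11 at 2.79, 2.69, 2.17 and 1.05) and 0 were at least 2-fold lower, where 5.21% and 7.46% of all genes were.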

How the data were processed

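CD45+ cells of 4 droplet libraries, 1 per condition, were analysed. The counts deposited by the authors are UMI counts per gene and cell barcode from Cell Ranger with mm10 (per the labels). Matrix headers name version 3.0.1 (standard sham, 3 dpi) or 3.1.0 (ActD sham, 14 dpi), a difference that cannot be told apart from condition. The files held 6827, 2439, 10763 and 11631 barcodes and 60412094, 27447471, 125270696 and 129935880 UMIs (standard sham, ActD sham, 3 dpi, 14 dpi).

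Cells needed 600 or more genes and a mitochondrial share of UMIs of 10% or less (1091, 236, 1235 and 752 failed). Cells positive for Itgam together with lymphoid genes (410, 26, 540 and 870) were removed, as were doublets marked by a Scrublet procedure at 0.8% per 1000 cells (291, 42, 774 and 931). Seurat 5.3.0 (R 4.3.3) integrated the 2 sham libraries, which named the standard sham cells, and separately the 3 ActD libraries, with clustering at a resolution of 0.6. All S100 genes were left out of the variable genes and markers. Clusters were named from marker lists, with cut-offs chosen once the clusters had been inspected. The members and gene lists were chosen with earlier results of these data known. Genes named in the text are the members, the fixed partner, neutrophil reference and other S100 lists, the 3 genes most like each member by Pearson r, and the leading genes of clusters.

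UMIs were summed per class and library and scaled to CPM, UMIs per 1000000 (Python 3.11.15, numpy 2.4.6, scipy 1.17.1, pandas 2.3.3). Levels carry exact 95% Poisson intervals, ratios exact conditional intervals and shares of cells Clopper-Pearson intervals, all for counting error only. A class without a UMI was given a floor of 3 UMIs. The share of all genes past 2-fold was taken over genes with 200 or more UMIs over both sums. Shares of cells with a UMI were computed after thinning each cell to 1000 UMIs, leaving out shallower cells. The ratio procedure was tested on simulated data. No paired test, model fit or p-value was made. TMM factors came from edgeR 4.0.16. Promoter sequences came from RefSeq (GRCm38.p6) and gene positions from GENCODE M21.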

Additional observations from a re-analysis of the deposited data

Results flagged for a closer look

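The members below were picked out because the microglia of a library lay on one side of the ActD sham and the neutrophils on the other, with both counting intervals away from 0. Each value is the microglial log2 difference minus that of neutrophils. The difference between the classes was not tested, since each condition is 1 library.

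At 3 dpi over the ActD sham the gap was 5.69 for S100a6, 4.95 for S100a8, 4.64 for S100a9, 4.22 for S100a11 and 1.56 for S100a13, with microglia higher and neutrophils lower. At 14 dpi over the ActD sham it was 1.60 for S100a6, 2.56 for S100a8 and 1.21 for S100a11, in the same direction. For the standard over the ActD sham it was 2.50 for S100a8 and 2.39 for S100a9, with microglia higher, and -3.24 for S100a1, with microglia lower and neutrophils higher. In the granule-led neutrophil clusters S100a1 measured 11.4 CPM in the standard sham and 13.1 in the ActD sham, and the Fcnb-led cluster of the standard sham measured 123. S100a8 measured 132777 and 165499 CPM in these granule-led clusters of the standard and ActD sham, and S100a9 measured 170092 and 178388. From the ActD sham to 3 dpi, S100a13 was lower in neither shared neutrophil cluster, at 0.53 (granule-led) and 0.06 (the other). S100a6 stood at 0.40 and -3.08, S100a8 at -0.56 and -3.15, S100a9 at -0.23 and -2.98, and S100a11 at -0.13 and -2.38. From the ActD sham to 14 dpi the granule-led cluster gave 0.042 for S100a8, -0.023 for S100a6 and -0.018 for S100a11. The other cluster gave -1.07, -0.87 and -0.27. Beside the microglial S100a8 levels of 200, 65.4, 285 and 342 CPM (standard sham, ActD sham, 3 dpi, 14 dpi), B cells of the same libraries held 251, 59.2, 249 and 394.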

How the results depend on the processing

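Of 1017 log2 values for 136 results under other settings, 635 belonged to results of at least 2-fold. Of these, 628 kept their direction, 594 also kept 2-fold, 34 lost it and 7 reversed. No paired analysis was possible because each condition is 1 library and no result comes from a test.

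S100a8 in neutrophils, 3 dpi over ActD sham (-2.83), gave -2.78 with each library clustered alone, -2.85 with doublets kept, -2.67 under stricter cell filters (1000 or more genes, 5% or less mitochondrial UMIs), -3.70 with TMM factors, -3.02 as a mean over cells and -0.56 in the granule-led clusters. S100a6 in microglia (3.82) gave 5.66 clustered alone, 4.61 with doublets, 3.997 with Itgam and lymphoid-marker cells kept, 4.07 under stricter filters, 4.21 with TMM, 4.87 as a mean over cells and 5.84 without the mitosis-led cluster. S100a1 in microglia at 14 dpi (1.42) gave 1.65 clustered alone and 1.95 with TMM. S100a6 in injury-associated macrophages over microglia at 3 dpi (2.50) gave 2.69 clustered alone, 2.79 at a resolution of 1.2, 1.63 with doublets, 2.11 with Itgam and lymphoid-marker cells, 2.25 under stricter filters, 2.89 with TMM and 2.37 as a mean over cells. S100a6 in monocytes over microglia at 14 dpi (6.63) gave 6.95 clustered alone, 5.21 with doublets, 5.52 with Itgam and lymphoid-marker cells, 6.39 with TMM, 6.54 as a mean over cells and 7.17 without the mitosis-led cluster. With Itgam and lymphoid-marker cells kept, S100a4 in T over B cells at 14 dpi (5.58) gave 3.63, and S100a13 in T cells over microglia (1.82) gave 1.55, 1.48 with TMM and 1.95 as a mean over cells. The median share of cells with an S100a8 UMI outside neutrophils at 14 dpi (30.4%) was 85.7% without thinning and 50.1% at 2000 UMIs. The cause of these shifts was not tested.

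7 values reversed. S100a1 in neutrophils, standard over ActD sham (2.68), stood at -0.48 with libraries clustered alone and -0.20 in the granule-led clusters. S100a6 in the granule-led neutrophil clusters stood at 0.40 (3 dpi over ActD sham), 0.019 (standard over ActD sham) and -0.42 (14 over 3 dpi). S100a4 in microglia, standard over ActD sham, stood at 0.63 with libraries clustered alone and 0.44 without the mitosis-led cluster. The granule-led and mitosis-led settings were chosen after seeing the data. With each library clustered alone, 10 values could not be computed, since the ActD sham monocytes or the 14 dpi injury-associated macrophages did not form. TMM and the mean over cells give no value for the share of cells.

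With 1 library per condition, no interval covers mice, dissociation or sequencing runs. Depth limited S100a1 in most lymphocytes and S100a4 in the ActD sham B cells and neutrophils.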

Other observations

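Clusters that carried no class name also held members. At 3 dpi, 999 cells led by Ppbp, Ccl24 and Mrc1 measured 1151 CPM of S100a4, 2322 of S100a6, 919 of S100a10 and 788 of S100a11, values between those of injury-associated macrophages and monocytes. Their markers scored highest for injury-associated macrophages, 1.24 times the score for border-associated macrophages. The mitosis-led cluster, named microglia in the ActD sham and at 14 dpi, held 492 unnamed cells at 3 dpi. They measured 404 CPM of S100a4 and 503 of S100a6, and 73 cells led by interferon genes measured 356 and 602. In the ActD sham, 29 cells led by Vtn and Rgs5 measured 198 CPM of S100a6 and 264 of S100a11. At 14 dpi, 50 cells led by Cldn5 and Ptn measured 187 CPM of S100a1, 352 of S100a6 and 310 of S100a11.

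Myeloid progenitors held S100a8 at 588, 927, 2922 and 1993 CPM in the 4 libraries (282, 35, 28 and 360 cells), against 1251, 354, 865 and 895 in monocytes. In the standard sham, 3 of the 282 progenitors held 63.6% of the S100a8 UMIs, and at 14 dpi 4 of the 360 held 39.3%. The ratio of S100a8 to S100a9 UMIs was 0.961 in the standard sham, 6.25 in the ActD sham, 0.747 at 3 dpi and 1.70 at 14 dpi, against 0.833, 0.950, 0.913 and 0.816 in neutrophils. The 28 ActD sham monocytes had a ratio of 6.48.

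The other S100 genes were scarce. Over all cells kept, S100b had 1678 UMIs, S100a16 759, S100a3 144, S100a7a 85, S100a5 29, S100a14 10, S100g 4 and S100z 2, and S100pbp, which encodes an S100P-binding protein and no S100 protein, had 3745. S100a16 and S100b reached 269 and 137 CPM in the 3 dpi fibroblasts.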
